A study of Homo sapiens with 18 samples.

Results

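The libraries compared here are the control xenograft tumours of 2 human neuroblastoma cell lines, LAN-1 (3 libraries) and KELLY (3 libraries), 6 of the 18 libraries of the series. Members were taken by sample title, LAN-1_Control against KELLY_Control. Both groups were bulk tumours grown in mice from established lines, with the treatment field reading None. The strain, age and sex of the mice are not stated, nor is it stated that each library is a different tumour-bearing animal, so p-values cover the library spread alone, part or all of which could be technical. Each group is 1 cell line, and a difference between the groups is a difference between 2 lines. The genotype entry MYCN-amp stands beside KELLY libraries 2 and 3, and the other 4 carry no genotype entry. Replicate numbers follow accession order and pair nothing. The same lines also have an arm named Hmx1 (3 libraries each), used below as other libraries of the same lines, and SKNAS control (3 libraries) is another line given for its levels.

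Neuroblastoma is a childhood tumour of the sympathoadrenal lineage of the neural crest. Its adrenergic cells are held by a circuit of transcription factors such as HAND2 and GATA3, and make noradrenaline from tyrosine through TH, DDC and DBH before storing it in dense core vesicles. In high-risk tumours the oncogene MYCN on chromosome 2p24 is often amplified together with a varying stretch of its neighbours, and LAN-1 and KELLY are long-used lines of that kind.

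The lines differed at many genes. Genes entered the test when their TPM, a transcript level per length and library total, reached 1 in 3 or more libraries. Of the 15817 that did, 7366 were called at an adjusted p under 0.05, which is 46.6% of those tested. Of these, 3887 (24.6%) were higher in LAN-1 and 3479 (22%) in KELLY. The libraries of the lines did not overlap for 9345 genes (59.1%). A gene under 1 TPM in every library of one line could enter the test only through the other line, which fixed its direction. Counts and medians of gene lists include such genes. Differences of at least 1 on the log2 scale numbered 1848 towards LAN-1 and 1948 towards KELLY, and those of at least 2 numbered 368 and 667. Values below are scaled TPM, that is, TPM divided by a median-ratio factor per library, given in the order of libraries 1, 2 and 3. Factors were taken over the 6 LAN-1 and KELLY control libraries. For SKNAS they were taken over all 18 libraries, so its levels compare with the others only roughly. Differences are LAN-1 minus KELLY on the log2(scaled TPM + 1) scale, which understates differences of low genes, with their standard error (SE). Adjusted p-values are those of limma over all 15817 genes. Coordinates are those of the files, read as GRCh37.

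The KELLY libraries were less alike than those of LAN-1. Mitochondrial transcripts took 6.54%, 6.36% and 5.72% of TPM in LAN-1 and 33.8%, 12.9% and 29.7% in KELLY (6.21% ± 0.431 and 25.5% ± 11.1, SD, n = 3 each; exact permutation p = 0.1, two-sided, the smallest that 3 against 3 libraries allow). KELLY library 1 stood furthest apart, with a scaling factor of 0.662 and 50.6% of its TPM in its 50 most abundant genes. Without it, 4200 genes were higher in LAN-1 and 3738 in KELLY. Within LAN-1 the libraries correlated across genes at a Pearson r of 0.986 to 0.988, and within KELLY at 0.955 to 0.974. The sequencing depth is unknown, since TPM does not record it. Leaving out the scaling moved the median difference of all genes by 0.41 towards LAN-1, and the share of calls higher in LAN-1 from 52.8% to 74.4%. It was 58.4% with nuclear genes rescaled to their own total. Medians of gene lists are therefore to be read beside that of all genes, 0.03. Counts of list members are to be read beside the shares over all genes, 24.6% higher in LAN-1 and 22% in KELLY. A list near these shares, such as S phase and mitosis or interferon response below, does not stand out.

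Both lines expressed markers of sympathetic neuroblasts. HAND2 had means of 280 in LAN-1 and 348 in KELLY, GATA3 of 93.5 and 51.0, DBH of 461 and 1087, and CHGA of 2125 and 2467. Of 11 such markers tested, 3 were higher in LAN-1, 4 in KELLY and 4 did not pass, with a median of -0.30. Being tested does not by itself show presence in both lines. Markers of other cell types were mostly low but not equal between the lines. Endothelial markers summed to 1.28 to 2.70 in LAN-1 and to 47.7 to 159 in KELLY, of which EGFL7 made up most (2.04, 2.00 and 0.67 against 147, 38.9 and 69.9), while PECAM1 and EMCN were listed at 0 in all 6 libraries. Of 9 tested fibroblast and pericyte markers, 1 was higher in LAN-1 and 6 in KELLY, with a median of -1.60, and their sums ran from 979 to 1073 in LAN-1 and from 1913 to 2339 in KELLY, most of it RGS5. The collagen gene COL1A1 had a mean of 6.86 in LAN-1 and of 92.5 in KELLY. Skeletal muscle markers summed to 1.11 to 2.12 and to 7.46 to 29.3, and skin epithelium markers to 9.11 to 15.9 and to 33.6 to 102. Schwann cell markers summed to 2.03 to 2.17 and to 6.64 to 11, and adipocyte markers to 3.23 to 4.50 and to 0.300 to 1.12. None of the 8 macrophage and leukocyte markers was tested, their sums staying between 0.559 and 1.74 in all 6 libraries. Removal of mouse reads is not stated, and the part of these cells in the results below was not tested. In bulk tumours, fewer cells of a type and less RNA per cell cannot be told apart.

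MYCN itself was high in both lines and higher in KELLY, whereas its neighbour DDX1 was far higher in LAN-1. MYCN, the transcription factor that drives this tumour class (chromosome 2, 16080686 to 16087129), stood at 693, 723 and 784 in LAN-1 and at 1431, 1835 and 1500 in KELLY. The groups did not overlap, and the difference was -1.11 ± 0.16 SE, adjusted p = 0.00105. DDX1, an RNA helicase gene (chromosome 2, 15731302 to 15771235), lies 309.5 kb before it and stood at 8285, 8075 and 8571 in LAN-1 against 159, 231 and 215 in KELLY. That is 41.2-fold on the means (5.38 ± 0.18 SE, adjusted p = 2.02e-06), and SKNAS control stood at 134. NBAS, the next gene tested on the other side of DDX1 at a distance of 29.8 kb, was at 29.4 and 27.1 (difference 0.15, adjusted p = 0.559). A list of genes of 2p24 and 2p25, MYCN included, had 34 tested members. Of these, 3 were higher in LAN-1, 17 in KELLY and 14 did not pass, with a median of -0.66. Beside DDX1, the LAN-1 side held KCNS3, a potassium channel subunit (mean 16.8 against 1.90, difference 2.61), and LDAH. On the KELLY side stood VSNL1, a neuronal calcium sensor (0.599 against 14.9, -3.30), TRIB2 (16.6 against 84.9, -2.29) and CYRIA (4.42 against 16.1, -1.65). With TPM left unscaled 4 of the 34 were higher in LAN-1 and 7 in KELLY. The list does not hold every gene of the region, which leaned less to KELLY. Of 79 tested genes in the bin from 0 to 20 Mb on chromosome 2, 15 were higher in LAN-1 and 25 in KELLY (median -0.17). MYCN did not pass with unscaled TPM (adjusted p = 0.0652), and passed in the other 16 of 17 alternative settings. MYC, its paralogue, was under 1 in all 6 libraries and was not tested, at 0.76, 0.18 and 0.126 in LAN-1 and 0.322, 0.178 and 0.406 in KELLY.

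Of the 5 protein-coding nuclear genes with the largest gain in level in LAN-1, DDX1 was the first, TMSB10, an actin-binding thymosin, stood at 2074, 2217 and 2394 against 1287, 736 and 830.1, and the other 3 lie on chromosome 20. ERGIC3, a cargo receptor between the endoplasmic reticulum and the Golgi (34129770 to 34145405), was at 4759, 4967 and 5511 in LAN-1 and at 423, 351 and 229 in KELLY (3.96 ± 0.24 SE, adjusted p = 1.54e-05). Its nearest tested neighbours CEP250 and SPAG4, 30.0 kb and 58.4 kb away, were at 7.56 and 6.34 in LAN-1 and at 10.98 and 5.22 in KELLY, and neither passed (adjusted p = 0.183 and 0.423). PFDN4, a prefoldin subunit (52824386 to 52844591), stood at 1570, 1654 and 1773 against 141, 114.1 and 145 (3.64 ± 0.14 SE, adjusted p = 2.93e-06). Around PFDN4, BCAS1 (23.3 against 0.421), CYP24A1 (2.81, listed at 0 in KELLY) and DOK5 (5.45 against 0.025) were higher in LAN-1 as well. RTF2, a replication termination factor (55043647 to 55093943), was at 2116, 2137 and 1638 and 100.2, 109.6 and 93.5 (4.26 ± 0.15 SE, adjusted p = 2.07e-06). On one side of RTF2, CSTF1 (39.97 against 49.2) and AURKA (66.5 against 62.2) did not pass, and on the other FAM209A and FAM209B were higher in LAN-1 (differences 1.82 and 2.70). FAM209A overlaps RTF2 by 1.7 kb on the same strand, so its value may include reads of RTF2. In SKNAS control ERGIC3, PFDN4 and RTF2 stood at 298, 46.8 and 81.1, so that the LAN-1 level was the highest of the 3 lines. DNA copy number was not measured in these libraries.

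**Figure D1:**
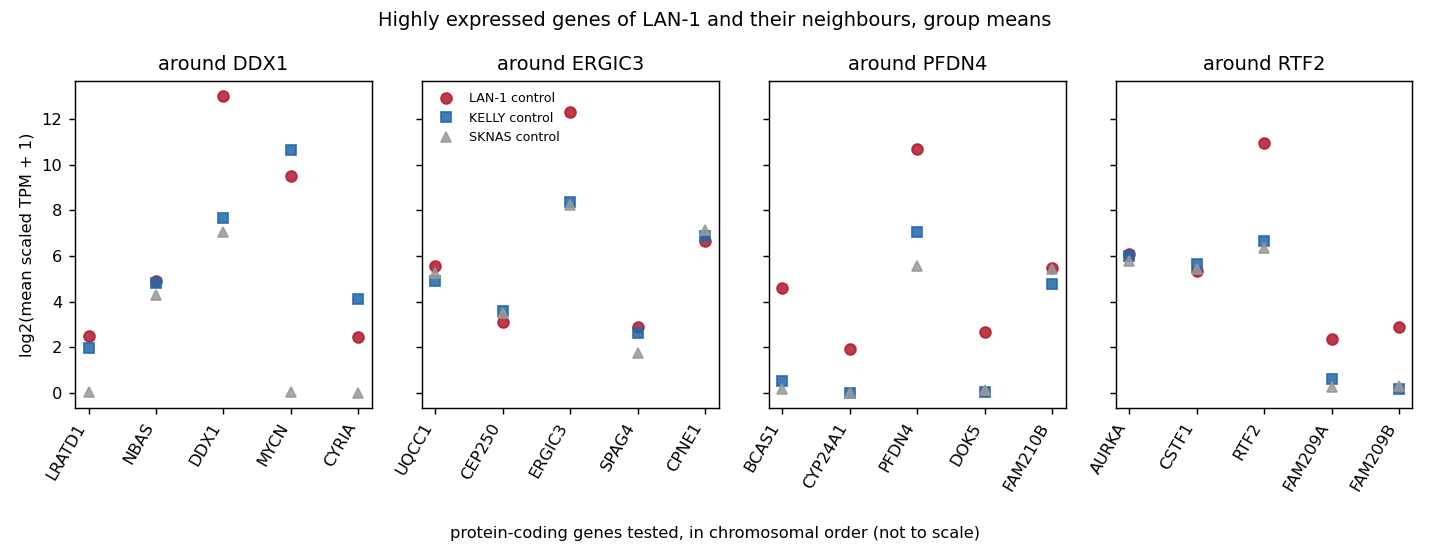
Mean scaled TPM on a log2(value + 1) axis for DDX1, ERGIC3, PFDN4 and RTF2 and the 2 nearest tested protein-coding genes on each side, in LAN-1, KELLY and SKNAS control (n = 3 each; points are group means). SKNAS values were scaled over all 18 libraries and the others over the 6 LAN-1 and KELLY control libraries. DDX1 reached 8310 in LAN-1 against 202 in KELLY while NBAS beside it stood at 29.4 and 27.1.

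Several genes were close to all-or-none between the lines. At 10 or more scaled TPM in every library of one line and under 0.1 in every library of the other, 24 genes marked LAN-1 and 63 marked KELLY. Among protein-coding genes, the largest difference towards LAN-1 was that of TMPRSS15, which encodes the protease enteropeptidase, at 562, 537 and 572 in LAN-1 and 0.102, 0.0899 and 0 in KELLY (9.04 ± 0.12 SE, adjusted p = 3.35e-08). It was followed by NNAT, neuronatin, an imprinted gene (130.1, 129 and 119.8 against 0, 0 and 1.23), then by UBB, given below, and PTGFR, a prostaglandin F receptor (51.8, 51.6 and 60.6 against 0.136, 0.114 and 0.591). FUCA2, HTRA1, TUBB4A, SEPTIN10, CERS4 and TFAP2C had LAN-1 means of 30.2 to 47.5 and KELLY means of at most 0.330. CERS4, a ceramide synthase, and TFAP2C, an AP-2 transcription factor, were listed at 0 in all 3 KELLY libraries. FMC1-LUC7L2 is a read-through gene that shares sequence with its constituents, and its value is uncertain.

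UBB, 1 of the polyubiquitin genes, was the only one of 10 ubiquitin pathway genes to differ by more than 1. It stood at 756, 712 and 786 in LAN-1 and at 13.1, 8.84 and 30.7 in KELLY, with KELLY library 3 the highest of its line (5.52 ± 0.38 SE, adjusted p = 3.04e-05). SKNAS control stood at 600.4, so KELLY was the line with little UBB. Reads of polyubiquitin genes can be shared with near-identical copies.

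On the KELLY side, the largest differences were those of the neuropeptide precursors CARTPT and SST. CARTPT, the precursor of the neuropeptide CART, stood at 0.047, 0 and 0 in LAN-1 and at 886, 922 and 1091 in KELLY (-9.89 ± 0.13 SE, adjusted p = 3.35e-08). SST, somatostatin, was listed at 0 in all 3 LAN-1 libraries and stood at 764, 338 and 679 in KELLY. CRABP1, a retinoic acid binding protein (0, 0 and 0.462 against 541, 826 and 368), CYGB, cytoglobin (0.545, 0.2 and 0.362 against 316, 157 and 211), and GSTO1, a glutathione transferase (listed at 0 against 125, 144 and 150.2), followed. The neurofilament gene NEFH was at 0, 0.025 and 0 and 130.4, 138 and 139.8, and GTSF1, a factor of the germline piRNA pathway, was listed at 0 in LAN-1 and stood at 104, 143 and 127 in KELLY. RAMP1, a receptor partner for calcitonin gene-related peptide, PRSS21, a testis protease, MAGEA1 and MEST were also near 0 in LAN-1, with KELLY means of 137, 95.8, 92.6 and 136. Every gene named here for its size of difference passed in all 17 alternative settings.

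**Figure D2:**
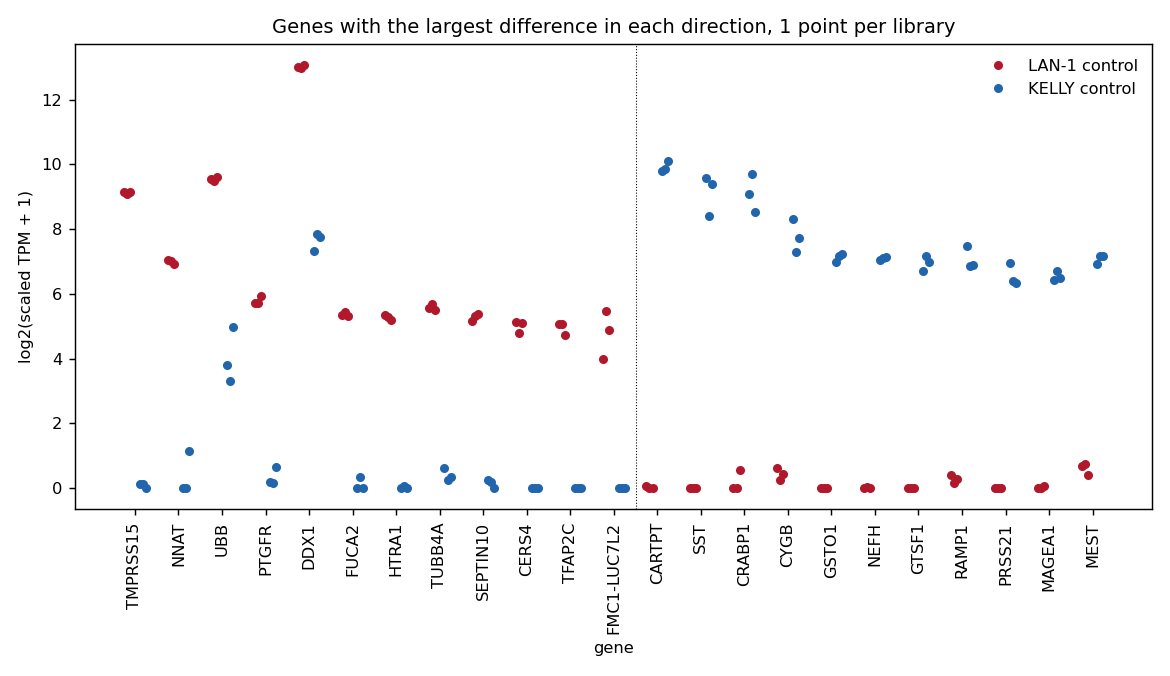
Values of each control library, log2(scaled TPM + 1), for protein-coding genes with the largest difference towards LAN-1 (left of the dotted line) and towards KELLY (right). For CARTPT the 3 KELLY libraries lie between 886 and 1091 scaled TPM and the LAN-1 libraries at or near 0, and UBB and DDX1 are the only 2 genes shown that stayed clearly above 0 in both lines.

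Most genes of the catecholamine pathway were higher in KELLY. Of 13 tested genes for catecholamine synthesis, storage and breakdown, 0 were higher in LAN-1, 9 were higher in KELLY and 4 did not pass, with a median of -1.23. TH, the rate-limiting tyrosine hydroxylase, stood at 73.8, 77.9 and 50.1 in LAN-1 and at 967, 577 and 411 in KELLY (-3.19 ± 0.32 SE, adjusted p = 0.000175). DDC, which makes dopamine from DOPA, stood at 63.4, 70.0 and 52.3 and at 609, 842 and 567 (-3.41 ± 0.19 SE, adjusted p = 1.02e-05). DBH, which turns dopamine into noradrenaline, was closest between the lines of the 3 enzymes, at 443, 442 and 499.6 and 1100, 1243 and 917 (difference -1.23, adjusted p = 0.000647). CYB561, the vesicle cytochrome that feeds electrons to DBH, stood at 18.1, 17.5 and 17.5 and at 430.4, 508 and 481 (-4.66 ± 0.11 SE, adjusted p = 6.88e-07). SLC18A2, the vesicular monoamine transporter VMAT2, stood at 1.17, 0.974 and 0.631 and 32.5, 53.2 and 32.1, and its paralogue SLC18A1 (VMAT1) at a mean of 10.3 and 59.6. MAOA, which breaks monoamines down, and the noradrenaline transporter SLC6A2 were higher in KELLY by 1.52 and 0.83. GCH1, PTS, QDPR and PNMT did not pass. Unscaled TPM left 6 of the 13 higher in KELLY and 0 in LAN-1.

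The transcription factors of the adrenergic circuit did not follow the enzymes in one direction. Of 27 tested, 10 were higher in LAN-1, 8 were higher in KELLY and 9 did not pass, with a median of 0.21. GATA3 and ISL1 were higher in LAN-1, by 0.90 and 0.45. HAND2 (means 280.0 and 348, adjusted p = 0.115) and HMX1 (9.88, 9.74 and 9.71 and 11.7, 3.60 and 6.17, adjusted p = 0.235) did not pass, and the HMX1 libraries overlapped. The largest difference was that of TFAP2B, an AP-2 factor of sympathetic neurons, at 0.571, 0.81 and 0.846 in LAN-1 and 78.0, 103 and 87.8 in KELLY (-5.69 ± 0.16 SE, adjusted p = 1.46e-06). Against TFAP2B stood its paralogue TFAP2C, listed at 0 in KELLY as given above. The neuroendocrine factor INSM1 (38.9, 37.1 and 36.0 against 6.62, 3.99 and 8.53) was higher in LAN-1, as was the proneural factor NEUROD1 (23.2 against 4.78). HEY1, a Notch target, stood at 7.46, 8.70 and 8.72 and 71.8, 56.1 and 91.9. LMO1 and LMO3, transcriptional cofactors, were higher in KELLY by 2.32 and 2.16. The Notch ligand DLL1 was higher in LAN-1 (17.6 against 2.29), and the Notch glycosyltransferase LFNG in KELLY (6.71 against 36.8). ISL1 did not pass without any 1 of LAN-1 libraries 1, 2 and 3 or KELLY library 2 (adjusted p = 0.0507 to 0.0843).

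Neuropeptide precursors were split between the lines. Of 11 tested, 3 were higher in LAN-1, 6 in KELLY and 2 did not pass, with a median of -1.30. NPY, neuropeptide Y, was listed at 0 in all LAN-1 libraries and stood at 90.9, 27.1 and 126 in KELLY, where library 2 was the lowest. PENK, proenkephalin, was listed at 0 in LAN-1 and stood at 10.9, 6.61 and 5.80 in KELLY. In the other direction, NMU, neuromedin U, stood at 9.51, 11.5 and 15.2 in LAN-1 and was listed at 0 in KELLY, and GAL, galanin, was at 359 and 163 (difference 1.14). Of 11 tested granins and prohormone processing genes, 5 were higher in LAN-1, 3 in KELLY and 3 did not pass, with a median of 0.39. CHGA, chromogranin A, the main soluble protein of the vesicles, was at 2173, 2240 and 1961 and 2632, 2704 and 2063, overlapping between the lines (adjusted p = 0.389). PCSK2, a prohormone convertase, was at 7.18, 7.45 and 6.59 in LAN-1 and listed at 0 in KELLY, while SCG5, its chaperone, was at 6.94, 6.99 and 9.05 and 29.1, 27.5 and 29.1.

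**Figure D3:**
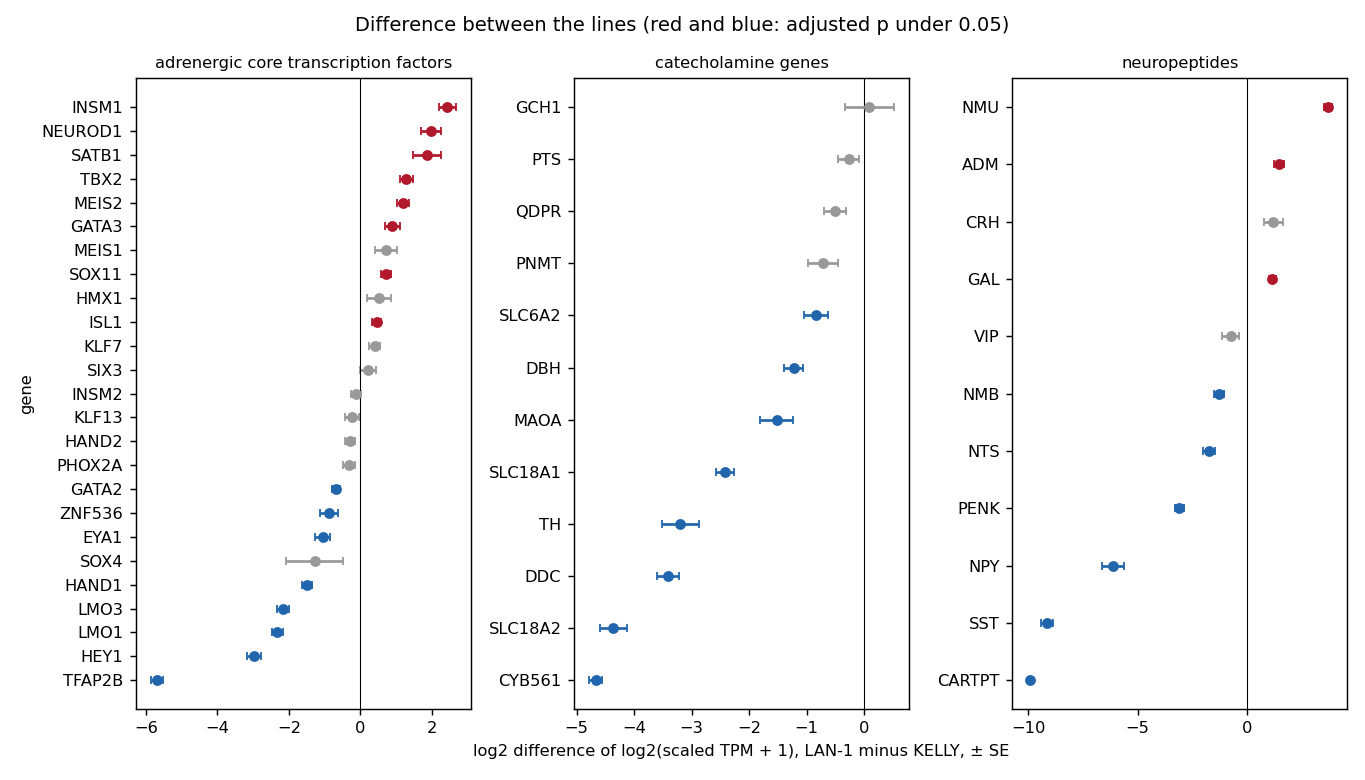
Difference between the lines, LAN-1 minus KELLY with its SE on the log2(scaled TPM + 1) scale (3 against 3 libraries), for tested members of 3 lists; red and blue points passed the test and grey points did not. No catecholamine gene passed towards LAN-1, whereas the transcription factors spread from -5.69 (TFAP2B) to values such as 2.43 (INSM1).

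The promoters of SST, CARTPT and SLC18A2 share the cyclic AMP response element TGACGTCA, the palindrome bound by CREB family factors. They are printed for that reason beside that of CHGA, which holds it too. CHGA did not pass in the control libraries, but was higher in KELLY in the Hmx1 libraries (difference -1.37, limma adjusted p = 0.000496). The windows run from 250 bases before to 50 after the gene start in RefSeq (GRCh38.p14), 5′ to 3′ on the strand of the gene, with the element in capitals.
SST (chr3:187670345-187670644, minus strand): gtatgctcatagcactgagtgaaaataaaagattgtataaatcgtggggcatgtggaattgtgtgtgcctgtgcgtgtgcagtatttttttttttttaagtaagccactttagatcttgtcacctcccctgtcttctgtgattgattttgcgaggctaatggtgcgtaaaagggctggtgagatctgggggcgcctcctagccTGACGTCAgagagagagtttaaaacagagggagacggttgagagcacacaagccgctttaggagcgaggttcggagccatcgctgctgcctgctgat
CARTPT (chr5:71719025-71719324, plus strand): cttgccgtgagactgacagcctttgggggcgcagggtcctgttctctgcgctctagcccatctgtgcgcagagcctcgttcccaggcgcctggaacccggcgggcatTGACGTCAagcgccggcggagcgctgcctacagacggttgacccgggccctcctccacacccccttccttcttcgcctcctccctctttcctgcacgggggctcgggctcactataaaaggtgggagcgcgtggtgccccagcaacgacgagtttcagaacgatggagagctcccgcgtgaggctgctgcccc
SLC18A2 (chr10:117240864-117241163, plus strand): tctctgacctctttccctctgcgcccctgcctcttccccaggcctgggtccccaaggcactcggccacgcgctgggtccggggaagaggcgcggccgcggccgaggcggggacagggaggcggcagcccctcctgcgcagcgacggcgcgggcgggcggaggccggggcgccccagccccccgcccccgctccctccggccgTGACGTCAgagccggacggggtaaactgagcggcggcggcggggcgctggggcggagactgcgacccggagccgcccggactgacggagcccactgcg
CHGA (chr14:92922900-92923199, plus strand): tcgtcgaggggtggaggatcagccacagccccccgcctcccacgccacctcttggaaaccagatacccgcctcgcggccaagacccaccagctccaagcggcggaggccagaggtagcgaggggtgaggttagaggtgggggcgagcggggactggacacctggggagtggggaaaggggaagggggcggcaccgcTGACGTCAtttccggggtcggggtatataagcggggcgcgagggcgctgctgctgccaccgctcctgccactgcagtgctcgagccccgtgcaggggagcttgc
The element begins 47, 143, 48 and 54 bases before the start of SST, CARTPT, SLC18A2 and CHGA. It was searched as these 8 letters, which read the same on both strands. No match was found in the windows of NPY, CRABP1 and DBH. It occurs in 1.85% of all 35116 promoter windows listed, several windows belonging to 1 gene. Among listed genes with a window, 2 of 18 neuropeptides, 1 of 8 catecholamine genes and 3 of 10 granin and processing genes held it, counts too small to compare. Counting a gene once if any of its windows matched, 4% of 10845 tested genes with a window held the element, 3.85% of 390 genes higher in KELLY by at least 2 and 3.33% of 270 genes higher in LAN-1 by at least 2. The element was thus about as frequent among genes of either direction as among all genes, and a match is a description of these letters only.

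Growth cone and neurofilament genes were split, much as all genes tested were (24.6% higher in LAN-1 and 22% in KELLY). Of 25 tested, 7 were higher in LAN-1, 8 in KELLY and 10 did not pass, with a median of -0.03. The 4 with the largest differences were all higher in KELLY: NEFH as above, GAP43, the growth-associated protein of axons (52.1, 49.8 and 51.7 against 357, 456 and 297), STMN2, stathmin-2 (means 94.0 against 571), and PRPH, peripherin (28.8, 26.0 and 22.8 against 213, 108.1 and 118.6). Ion channels leaned to KELLY, with 19 of 35 tested higher there, 6 higher in LAN-1 and a median of -0.74 (13 and 8 with unscaled TPM). GRIN1, the obligate NMDA receptor subunit (0.6 against 24.6), and HTR3A, a serotonin-gated channel (4.84 against 44.8), were higher in KELLY. CACNA1H, a T-type calcium channel, stood at 18.7, 17.2 and 14.4 in LAN-1 and was listed at 0 in KELLY, and KCNN2, an SK potassium channel, at 10.3 against 0.102. CHRNA9, a nicotinic receptor subunit, was higher in LAN-1 (23.1, 23.6 and 16.9 against 0.351, 0.478 and 0.0652).

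Among guidance and adhesion genes, CDH13, T-cadherin (0.0643 in LAN-1, 23.97 in KELLY), RGMA, a repulsive guidance molecule (0.0258, 11.2), ROBO3 (0.255, 13.8) and PLXNA2, a semaphorin receptor (1.46, 22.1), were higher in KELLY. Over 36 tested axon guidance genes, 11 were higher in LAN-1 and 13 in KELLY, with a median of -0.08. Of 27 tested cadherins and clustered protocadherins, 7 were higher in LAN-1, among them PCDHB3 (13.1, 0.506), and 11 in KELLY, with a median of -0.38. DKK1, a secreted Wnt antagonist, was listed at 0 in LAN-1 and stood at 49.3, 69.5 and 80.9 in KELLY, and LEF1, a Wnt-responsive transcription factor, was listed at 0 against 10.7, 7.46 and 5.13.

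Positional identity genes separated the lines at the HOXC cluster. Of 39 HOX genes, 13 were tested, with 1 higher in LAN-1, 8 in KELLY and 4 not passed, and a median of -1.57. HOXC4 stood at 0.502, 1.41 and 0.0199 in LAN-1 and 44.2, 38.4 and 40.1 in KELLY, HOXC8 at 0.026, 0.0727 and 0.0519 and 11.5, 11.4 and 13.98, and HOXC9 at 0.0544, 0.0629 and 0 and 19.5, 11.9 and 16.1. All 5 tested HOXC genes, HOXC4, HOXC5, HOXC6, HOXC8 and HOXC9, were higher in KELLY. HOXC8 and HOXC9, near 0 in LAN-1, could enter the test only through KELLY, which fixed their direction. The count of HOXC genes is therefore no separate support for that direction. In the HOXD cluster only HOXD8 was higher in LAN-1 (14.4 against 8.07), while HOXD13, of the distal end, was at 0.0434, 0.0848 and 0.206 and 26.6, 40.4 and 30.6 (-4.90 ± 0.20 SE, adjusted p = 2.99e-06). HOXD3, HOXD4, HOXD9 and HOXD10 did not pass. None of the HOXA or HOXB genes was tested, their means being under 0.37 in both lines.

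Some genes of growth arrest and cell death differed, in both directions. CDKN1A, the p21 cell cycle inhibitor, was at 0.872, 0.902 and 0.433 in LAN-1 and 6.68, 5.19 and 7.82 in KELLY. TNFRSF10B, a TRAIL death receptor, was at 0.487, 0.905 and 0.283 and 15.0, 13.9 and 16.2, and PHLDA3, an AKT repressor, at 2.06 and 12.6. DDB2, a DNA damage sensor, was at 0.677 and 7.01. Of 23 tested genes of the BCL2 family, caspases and death receptors, 5 were higher in each line and 13 did not pass, with a median of 0.02. That is near the share over all genes tested, 24.6% higher in LAN-1 and 22% in KELLY, so the list did not stand out. BAX and BBC3, which promote cell death, were higher in KELLY by 0.82 and 1.56, as were BOK (1.35 against 28.4), BIRC7 (1.54 against 19.1) and HRK. PMAIP1 (28.04 against 16.1) and BCL2L11, which encodes BIM (14.9 against 3.69), were higher in LAN-1. CASP8 was under 1 in all 6 libraries and was not tested, and BCL2 did not pass (8.41 against 12.5, adjusted p = 0.0623).

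Cell cycle genes leaned to LAN-1 at G1. Of 21 tested, 9 were higher in LAN-1, 1 (CCNE1, passing in 8 of 17 alternative settings) was higher in KELLY and 11 did not pass, with a median of 0.51. RB1, the retinoblastoma protein, stood at 34.4, 32.5 and 35.1 in LAN-1 and 7.33, 14.2 and 15.1 in KELLY, and E2F7 and E2F8, repressive E2F factors, were higher in LAN-1 by 1.26 and 1.15. CCND1 (means 99.5 and 87.6, adjusted p = 0.26) and CDKN2A (adjusted p = 0.394) did not pass. Of 31 tested S phase and mitosis genes, 7 were higher in LAN-1, 5 in KELLY and 19 did not pass, with a median of 0.20. BUB1 (43.7 against 13.3) and MCM6 (96.2 against 42.1) were higher in LAN-1, and CDC6 (19.6 against 48.9) and GINS2 (22.99 against 49.7) in KELLY. TERT, the telomerase catalytic subunit, was at 3.51, 3.30 and 3.38 and 5.70, 5.67 and 7.27 (difference -0.71, adjusted p = 0.00914), a call lost with unscaled TPM (adjusted p = 0.293).

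Receptor and signalling genes differed in both directions. ALK, a receptor kinase mutated in some neuroblastomas, stood at 4.03, 4.38 and 2.83 in LAN-1 and 9.02, 12.8 and 12.6 in KELLY (-1.39 ± 0.21 SE, adjusted p = 0.0013), and RET, the receptor for GDNF family ligands, at 18 and 39.2 (difference -1.07). FGFR4, a fibroblast growth factor receptor, was at 0.673 and 9.70. INSR, the insulin receptor, ran the other way, at 13.2, 11.4 and 9.71 in LAN-1 and 0.0479, 0.0229 and 0 in KELLY (3.59 ± 0.16 SE, adjusted p = 4.94e-06). The ALK ligand genes ALKAL1 and ALKAL2 were higher in LAN-1 (2.20 and 1.73 against 0.0279 and 0.102). Over 31 tested receptor kinases and ligands, 9 were higher in LAN-1, 14 in KELLY and 8 did not pass, with a median of -0.05. Among genes that report RAS-ERK signalling by feedback, 4 of those higher in KELLY were ETV5 (2.37, 1.06 and 1.69 against 29.1, 24.98 and 33.2), ETV1 (2.40 against 15.6), ETV4 (1.39 against 8.51) and SPRY4 (0.325 against 5.35). Of 20 tested genes of that list, 8 were higher in KELLY, 4 in LAN-1 and 8 did not pass, with a median of 0.05. The sign of that median relative to all genes changed in 8 of 17 alternative settings, so no direction is given for the list.

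Retinoic acid genes leaned to KELLY. Of 13 tested, 1 (RARB) was higher in LAN-1, 7 in KELLY and 5 did not pass, with a median of -1.15. Beside CRABP1, the paralogue CRABP2 was at 2.95, 2.65 and 2.51 in LAN-1 and 51.0, 102 and 46.1 in KELLY, ALDH1A3, which makes retinoic acid, at 0.367 and 8.16, and the receptor RARG at 1.39 and 9.86. RARA, RXRA and RXRB did not pass.

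Amino acid synthesis genes leaned to LAN-1. Of 23 tested serine, one-carbon and amino acid genes, 12 were higher in LAN-1, 2 in KELLY and 9 did not pass, with a median of 0.60. PHGDH, the first enzyme of serine synthesis, stood at 320.5, 303 and 320.3 in LAN-1 and 110.7, 110.5 and 92.5 in KELLY (1.58 ± 0.12 SE, adjusted p = 5.24e-05), and PSAT1, the next enzyme, at 208, 211 and 221 and 54.7, 56.3 and 72.6. PSPH, the third, did not pass. ASS1, which makes argininosuccinate from citrulline, stood at 277, 256 and 297 and 57.7, 41.8 and 49.6 (2.46 ± 0.15 SE, adjusted p = 1.47e-05), while ASL, which cleaves argininosuccinate to arginine, ran the other way at 18.8, 18.9 and 15.7 and 81.2, 64.0 and 62.1. SLC7A11, the cystine importer, was higher in LAN-1 (5.90 against 1.14). SHMT2 and ASNS were higher there by 1.04 and 1.20. Of 16 tested polyamine genes, 2 (AZIN2 and ARG2) were higher in LAN-1 and 0 in KELLY, with a median of 0.17, and ODC1, a MYCN target, did not pass (393 against 442, adjusted p = 0.306).

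Lactate and glucose transport differed by transporter. SLC16A3, the lactate exporter MCT4, stood at 0.159, 0.113 and 0.426 in LAN-1 and 48.0, 29.4 and 44.4 in KELLY, and SLC2A3, the glucose transporter GLUT3, at 13.6, 6.29 and 11.1 and 0, 0.0462 and 0. EPAS1, which encodes HIF-2 alpha, was at 29.3, 27.6 and 33.0 and 178, 190.5 and 165. Of 36 tested hypoxia and glycolysis genes, 11 were higher in LAN-1, 6 in KELLY and 19 did not pass, with a median of 0.07. FADS1 and FADS2, fatty acid desaturases whose genes overlap on chromosome 11, were higher in LAN-1 by 1.76 and 1.11. The 2 genes lie on opposite strands and counting by strand is not stated, so their values may share reads.

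Surface and immune genes were mixed. ST8SIA1, the GD3 synthase on the way to the ganglioside GD2, was at 13.2, 11.8 and 10.8 in LAN-1 and 1.63, 2.02 and 1.92 in KELLY (2.18 ± 0.16 SE, adjusted p = 3.98e-05), and B4GALNT1, the GD2 synthase, at 28.9, 25.5 and 24.1 and 9.88, 16.9 and 11.2 (1.02 ± 0.20 SE, adjusted p = 0.00504). ST3GAL5, which makes their precursor GM3, was higher in LAN-1 by 1.46. The class I gene HLA-C was at 2.94, 2.60 and 1.79 and 19.03, 18.3 and 14.3. HLA genes vary between people, and reads that differ from the reference may be counted less well. B2M, the class I light chain, was higher in LAN-1 (182, 171 and 189.6 against 103, 110.4 and 41.3, adjusted p = 0.0234), a call lost without any 1 of the LAN-1 libraries (adjusted p = 0.0567 to 0.0771) and with no filter (0.0598). KELLY library 3 was the lowest. ISG15, an interferon-induced ubiquitin-like modifier, was at 17.0, 12.7 and 14.3 and 0.263, 0.287 and 0.625, yet of 15 tested interferon response genes 4 were higher in each line and 7 did not pass, with a median of 0.19.

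Tested members of cancer-testis families were mostly higher in KELLY. Of 15 tested members, 13 were higher in KELLY, 1 in LAN-1 and 1 did not pass, with a median of -2.11. Members near 0 in LAN-1, such as MAGEA1 and MAGEA10, entered the test through KELLY alone. Their direction was fixed by that, so the count and the median are in part set by the entry rule. MAGEA10 was listed at 0 in LAN-1 and stood at 74.6, 93.0 and 88.8 in KELLY, MAGEA12 at 1.18, 1.14 and 1.52 and 80.5, 97.0 and 81.9, and CSAG1 at 0.702, 0.536 and 1.17 and 106, 63.4 and 72.7. CTAG2 ran the other way (308 against 75.1, difference 2.08). Near-identical gene copies make single values in these families uncertain. LIN28A, an RNA-binding inhibitor of let-7 processing, was at 0.0242, 0.0591 and 0.0247 and 17.2, 14.4 and 11.1, and its paralogue LIN28B at 26.4, 25.5 and 30.7 and 46.4, 68.0 and 67.5 (-1.09 ± 0.18 SE, adjusted p = 0.00193). DIS3L2, the nuclease that degrades uridylated pre-let-7, was at 0.0209, 0 and 0 and 10.8, 11.1 and 12.2 (-3.61 ± 0.15 SE, adjusted p = 3.11e-06). IGF2BP2, an RNA-binding protein, ran against them (10.03 in LAN-1, 0.121 in KELLY). HENMT1, which methylates piRNAs, CTCFL, the testis paralogue of CTCF, and ZFP57, a zinc finger protein of imprinted loci, were at 19.1, 51.2 and 20.1 in KELLY and at or near 0 in LAN-1. These 3 were chosen after their values were seen and give no support for a direction. ZP3, LDHAL6A and the noncoding DSCR8, picked in the same way, lay towards LAN-1. Their means were 15.4, 15.0 and 51.3 in LAN-1 and at or near 0 in KELLY.

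Imprinted genes differed in both directions. Of 24 tested, 5 were higher in LAN-1, 12 in KELLY and 7 did not pass, with a median of -0.54. H19, a maternally expressed noncoding RNA, stood at 214, 513 and 233 in LAN-1, library 2 being the highest, and at 1.29, 2.66 and 1.17 in KELLY (6.81 ± 0.36 SE, adjusted p = 7.96e-06). IGF2, its paternally expressed neighbour on chromosome 11, was higher in KELLY (13.5 against 46.5, difference -1.73). MEST, paternally expressed, was near 0 in LAN-1 as given above, and PLAGL1 stood at 7.79, 7.79 and 12.3 in LAN-1 and listed at 0 in KELLY. DLK1 did not pass (1871 against 1788).

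Of 17 tested mesenchymal and neural crest regulators, 3 were higher in LAN-1, 8 in KELLY and 6 did not pass, with a median of -0.53. CD44, a hyaluronan receptor, was at 0.0211, 0.046 and 0 and 6.88, 16.3 and 6.75, and PRRX1, a mesenchymal homeobox factor, at 0.878 and 6.64. FN1, fibronectin, was higher in LAN-1 (51.2 against 14.8). The collagen and endothelial markers given above moved in the direction of KELLY as well, and their part was not tested. KMT2A, a histone methyltransferase, was higher in LAN-1 (19.6 against 5.89).

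Mitochondrial transcripts were higher in KELLY, and unevenly so among its libraries, whereas most ribosomal protein genes did not pass. Of 15 mitochondrial transcripts, 14 were higher in KELLY and 1 did not pass, with a median of -2.32. MT-CO2, a subunit of cytochrome c oxidase, was at 6219, 6158 and 6004 in LAN-1 and 82170, 20690 and 47140 in KELLY, where library 2 was the lowest. Of 75 ribosomal protein genes, 3 were higher in LAN-1, 17 in KELLY and 55 did not pass, with a median of -0.42. With unscaled TPM the median was 0.04 and 10 were higher in LAN-1 against 9 in KELLY, so their direction turns with the scaling. RPL27 was at 1724, 1767 and 2028 in LAN-1 and 7306, 4788 and 4920 in KELLY. For RPL27, RPL36A, RPL13A and RPL35, all among the 5 protein-coding nuclear genes with the largest gain in level in KELLY, library 1 was the highest of the line, the one with the highest mitochondrial share. RPL35 passed in 11 of 17 alternative settings and RPL13A in 13. Of 13 tested genes of immediate early and dissociation stress, 4 were higher in LAN-1, 0 in KELLY and 9 did not pass, with a median of 0.49, beside 24.6% of all genes higher in LAN-1. JUN was among the 4 (41.2 against 15.9). HSPA1A, a heat shock gene, passed although its libraries overlapped (121.8, 97.1 and 54.3 and 9.38, 15.8 and 57.2), and kept its call in 12 of 17 alternative settings. Its near-identical copy HSPA1B differed by 1.22 in the control and by -0.73 in the Hmx1 libraries (adjusted p of the change in difference 0.06). Reads of the 2 genes can be split between them in counting, so the single values of both are uncertain.

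Differences were not spread evenly over chromosomes. On chromosome 22, 32 of 423 tested genes were higher in LAN-1 and 175 in KELLY (median -0.47). Chromosomes 7 and 19 also leaned to KELLY (medians -0.30 and -0.26), and chromosomes 4, 18, X and 8 to LAN-1 (0.35, 0.29, 0.29 and 0.28). Chromosomes 7, 19, 18 and 8 did not lean one way along their whole length. On chromosome 7 the bins from 80 to 100 and from 100 to 120 Mb had medians of 0.07 and 0.77. The bin from 0 to 20 Mb had 0.04 on chromosome 19 and -0.37 on chromosome 18. On chromosome 8 the bin from 140 to 160 Mb had -0.17. Their other bins with at least 20 tested genes had medians of the same sign as their chromosome. Among bins of 20 Mb with at least 20 tested genes, the 4 from 80 to 160 Mb on chromosome 2 had medians of 1.25, 1.26, 1.07 and 1.43, with 69 of 93, 56 of 71, 44 of 67 and 25 of 29 genes higher in LAN-1. The bin from 160 to 180 Mb next to them stood at 0.10, and that from 60 to 80 Mb at -0.04. BUB1, SEPTIN10, MCM6 and ACVR2A lie in that stretch. The bin from 40 to 60 Mb on chromosome 19 held 12 genes higher in LAN-1 and 228 in KELLY of 406 (median -0.70). It includes zinc finger genes listed at 0 in LAN-1, ZNF320, ZNF677, ZNF83 and ZNF544, with KELLY means of 29.5, 24.3, 18.2 and 17.7, which were chosen after their values were seen. The last bin of chromosome 9 held 0 genes higher in LAN-1 and 15 in KELLY of 21. Gains or losses of DNA were not measured, and these medians are given as descriptions.

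**Figure D4:**
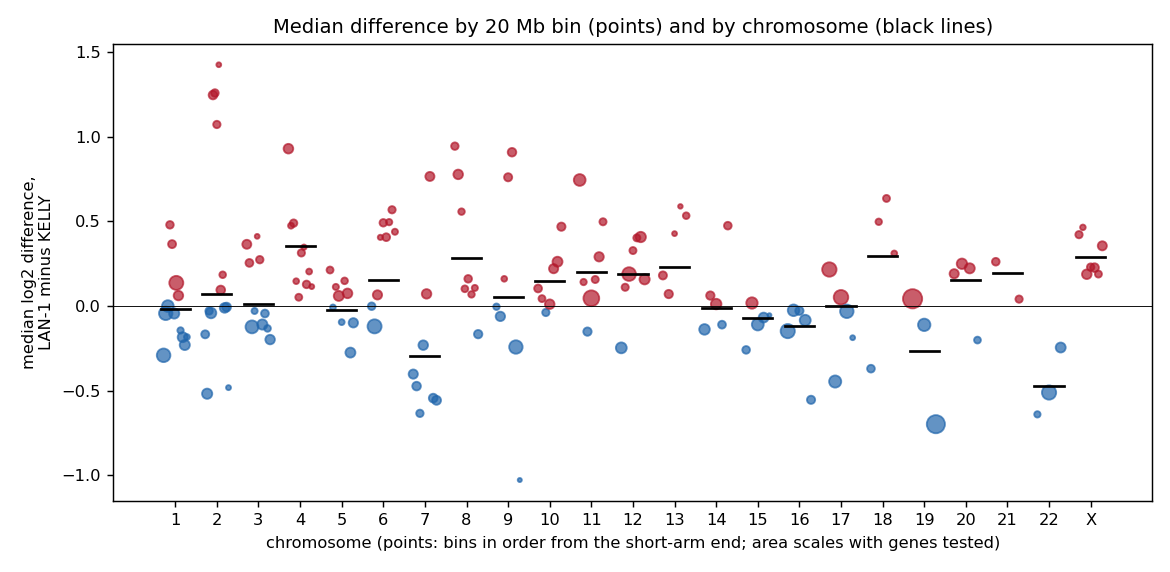
Median log2 difference, LAN-1 minus KELLY, of the genes tested in each 20 Mb bin (points, area scaled by the number of genes, red above 0 and blue below) and in each chromosome (black lines). The 4 red points above 1 all lie on chromosome 2, and the large blue point of chromosome 19 stands at -0.70.

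The line differences were also measured in the Hmx1 libraries, which share no library with the control comparison. There 8059 of the same 15817 genes were called, 51% of those tested. Of the 7366 control calls, 3122 higher in LAN-1 and 2905 higher in KELLY were called in the same direction (81.8% of the control calls and 74.8% of the Hmx1 calls), and 14 were called in opposite directions. MYCN differed by -1.11 in control and by -1.23 in Hmx1 libraries, DDX1 by 5.38 and 5.37, CARTPT by -9.89 and -10.64, and TH by -3.19 and -4.05. A test of the difference between the arms called 13 genes (0.0822% of those tested; 1227 had an unadjusted p under 0.05). Of the catecholamine genes only CYB561 was among them. Its difference between the lines was -4.66 in control and -6.06 in Hmx1 libraries (difference of differences 1.38, adjusted p = 0.00827). With TPM left unscaled, CYB561 did not pass this test between the arms.

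**Figure D5:**
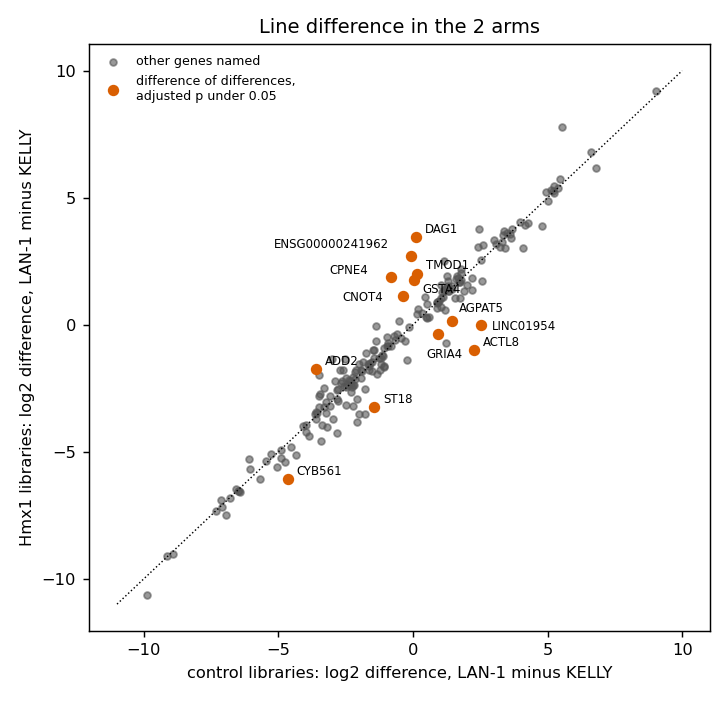
Line difference, LAN-1 minus KELLY on the log2(scaled TPM + 1) scale, in the control libraries (horizontal) against the Hmx1 libraries (vertical), 3 against 3 libraries each. Grey points are the other genes named, orange points the 13 genes whose difference between the arms passed, and the dotted line marks equality; ACTL8 lies at 2.26 and -0.99.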

How the data were processed

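RNA was measured by paired-end sequencing of TruSeq stranded mRNA libraries on an Illumina instrument, per the labels' protocols. The deposited tables give TPM, FPKM and a coverage signal per gene, and TPM sums to the same total in each library. bcl2fastq, STAR, FastQC, GRCh38.p12 and GRCh37 appear in the submitters' processing notes with no role; the coordinates fit GRCh37, whose chromosome 1 the last gene end, 249231242, lies within. The quantifier, the use of strand and any removal of mouse reads were not named in the labels or headers read. Of 63677 identifiers, 52181 matched a symbol.

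TPM was divided by median-ratio factors, since the mitochondrial share differed, and genes at 1 TPM or more in at least 3 of the 6 control libraries were kept. limma 3.58.1 (R 4.3.3, mean-variance trend) tested log2(scaled TPM + 1), with Benjamini-Hochberg adjustment over 15817 genes and a threshold of 0.05. The script was tested on simulated data. The Hmx1 libraries had a fit of the same kind, and an interaction term compared the arms. FPKM served as an alternative, and coverage was not used.

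Genes were named by rule: per direction the 12 protein-coding genes with the largest log2 difference and the 5 protein-coding nuclear genes with the largest difference in level, up to 4 called members of each list, and a set of lineage and oncogene names whatever their values. Other list members, neighbours and zinc finger genes were picked after their values were seen. The members and lists were chosen with earlier results of these data known. Some genes that the rule or lists include are not reported here.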

Additional observations from a re-analysis of the deposited data

Results flagged for a closer look

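The difference between LAN-1 and KELLY was not the same in the 2 arms for 13 of 15817 genes, which passed a test of the difference itself (limma interaction term, 3 libraries in each of 4 groups, adjusted p under 0.05). Values are the control difference minus the Hmx1 difference on the log2(scaled TPM + 1) scale.

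For 6 genes the difference in control lay further towards LAN-1. ACTL8, an actin-like gene, had the largest value, 3.23 (adjusted p = 7.03e-05), the control difference being 2.26 and the Hmx1 difference -0.99. The noncoding gene LINC01954 had 2.51, with 2.53 in control and 0.00 in Hmx1 libraries. It stood at 5.98, 4.47 and 4.02 in LAN-1 control and was listed at 0 in every KELLY control and Hmx1 library. LINC01954 thus entered the test through LAN-1 control alone, which fixed the direction of its control difference. A gene present only in Hmx1 libraries could not enter. The zinc finger factor ST18 had 1.79, the vesicle cytochrome CYB561 1.38, the acyltransferase AGPAT5 1.31 and the glutamate receptor subunit GRIA4 1.27.

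For 7 genes the control difference lay further towards KELLY than the Hmx1 difference. DAG1, dystroglycan, had -3.35 (adjusted p = 0.00159), with 0.12 in control and 3.45 in Hmx1 libraries. ENSG00000241962, a gene without a symbol in the tables used, had -2.82 and the copine CPNE4 -2.72. The adducin ADD2 had -1.87, the tropomodulin TMOD1 -1.86, the glutathione transferase GSTA4 -1.76 and the deadenylase subunit CNOT4 -1.50. Of the 7, only CPNE4 and ADD2 passed in the control comparison itself, both higher in KELLY.

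With TPM left unscaled 6 genes passed, and of the 13 these included ACTL8, LINC01954, DAG1, ENSG00000241962 and CPNE4.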

How the results depend on the processing

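With TPM left unscaled 5343 genes were higher in LAN-1 and 1840 in KELLY, a minimum of 5 TPM left 3009 and 2211 of 11723 genes, and the test between arms called 6 genes unscaled; the smaller set tested under the higher minimum holds fewer genes by construction. Leaving out 1 library at a time gave 2880 to 4200 genes higher in LAN-1, 2667 to 3738 higher in KELLY, 6691 to 7601 called in the Hmx1 libraries, and a LAN-1 minus KELLY mitochondrial share of -25.5 to -15.1 percentage points.

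Of 3531 values of the 209 tested genes named here under up to 17 alternatives, 3418 kept direction and side of the threshold, 50 lost and 29 gained their call, and 34 changed sign, all for genes that had not passed. Unscaled TPM turned HAND2 to 0.16, CHGA to 0.25, ODC1 to 0.29, CNOT4 to 0.064, CSTF1 to 0.15, ENSG00000241962 to 0.35, PTS to 0.19, HOXD3 to 0.25, RXRA to 0.34 and RXRB to 0.28. Quantile normalization turned CHGA to 0.19. Rescaled nuclear genes turned ENSG00000241962 to 0.031 and RXRA to 0.019. Library weights gave DAG1 -0.069, GSTA4 -0.035, ENSG00000241962 0.031, AURKA -0.082 and PSPH -0.0031. With single libraries left out, NBAS ran from -0.032 to 0.33, DAG1 from -0.11 to 0.33, GSTA4 from -0.14 to 0.19, ENSG00000241962 from -0.23 to 0.10, GCH1 from -0.27 to 0.64, HOXD10 from -0.14 to 0.23, AURKA from -0.030 to 0.26 and PSPH from -0.066 to 0.27. Calls lost without 1 library were those of HSPA1A, CCNE1, ISL1, RPL35, RPL13A, LDAH, B2M, ARG2, SLC6A2 and HOXD8. Unscaled TPM also ended those of RPL35, TERT, MYCN, RET, LIN28B, CPNE4, SLC6A2, MAOA, BAX, CCNE1 and RGS5. The cause was not tested. Of 42 lists, 12 changed the sign of their median relative to all genes under at least 1 alternative.

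No paired analysis was possible because the replicate numbers only follow accession order. Depth is unknown from TPM, so the precision of low values cannot be given, and 1 line per group cannot stand for MYCN-amplified tumours in general.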
